A study of Mus musculus with 6 samples.

Results

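The transcripts of the mitochondrial genome were followed through 6 Drop-seq libraries of mouse brain myeloid cells. Members were all gene names beginning with mt- in the UMI count tables, over every deposited barcode. They numbered 26 of 19361 gene names, with 18 to 24 in any single table. Of the 37 genes annotated on the mouse mitochondrial chromosome, the tables hold 10 of 13 protein-coding genes, both ribosomal RNAs and 14 of 22 tRNAs.

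The mitochondrial genome is a small circle of DNA transcribed in long precursors, which are cut apart largely at the tRNAs that stand between the other genes. Its protein-coding genes encode core subunits of the respiratory chain and of ATP synthase, and its ribosomal RNAs, mt-Rnr1 of the small subunit and mt-Rnr2 of the large subunit, serve only the ribosomes inside the organelle. In single-cell data the share of these transcripts is widely used to judge barcodes, because it is known to depend both on the cell type and on the state of the cell or droplet.

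All mice were female, aged 2 to 3 months and of the C57BL/6 strain. The 2 naive libraries came from 1 wild-type brain each without metastases. The 2 metastasis libraries came from 1 unmodified brain each, taken 2 to 3 weeks after E0771 cells, from a mammary carcinoma of the mouse, had been injected into the heart. Cx3cr1+/- (heterozygous) and Cx3cr1-/- (null) mice carrying metastases of the same cells gave 1 library each, from 2 pooled brains. Every mouse was perfused with PBS, and every suspension passed through papain digestion, a Percoll gradient and magnetic enrichment of Cd11b, a surface protein of myeloid cells. Replicate 1 was sequenced on a HiSeq 2500 and all other libraries on a NextSeq 500, so replicate number and sequencer cannot be told apart. For the 4 libraries of unmodified mice, each table's name carries the group that its sample label does not. The labels are followed here, and every direction between metastasis and naive would turn over if those names were right for all 4. If they were right for replicate 2 alone, naive mitochondrial shares of 6.87% and 3.32% would stand against metastasis shares of 2.85% and 12.5%. The groups would then overlap. The 65 barcodes classed further on as carcinoma-like all came from metastasis 1. Which names hold was not tested. The labels do not describe the altered Cx3cr1 allele.

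Each library holds 1000 barcodes, and no pair of libraries had more than 1 barcode in common. Total UMIs ran from 491621 in metastasis 2 to 2667099 in metastasis 1, and the median barcode held 323.5 to 1709 UMIs. Cx3cr1 stood at 63.5 counts per 1000000 UMIs (CPM) in the null and at 1323 CPM in the heterozygous library. Metastasis 1 stood apart in its cells. Its 12 microglia markers summed to 2872 CPM, against 11916 to 25062 CPM elsewhere, all 12 being detected in each of the 6 libraries. The 9 carcinoma markers present summed to 949 CPM there and to 22.4 to 70.4 CPM elsewhere. Of these markers, 1 was at 0 in metastasis 1 and 6 were at 0 in metastasis 2. The lowest sum was that of metastasis 2, which also held the most microglia markers, 25062 CPM, with 23297 CPM in naive 1. Naive 2 held 11916 CPM of them, near the 12295 and 12602 CPM of the heterozygous and null libraries. Cx3cr1 stood at 4997 and 2173 CPM in naive 1 and 2 and at 392 and 5417 CPM in metastasis 1 and 2. Metastasis 2 was the shallowest library and held 3741 CPM of erythroid markers, against 22.9 to 139 CPM elsewhere. A sum over barcodes of mixed types cannot tell fewer cells of a type from less RNA per cell.

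Drop-seq primes on runs of A and reads the 3′ end, and reads that also match another gene can be lost in counting, so the sequences of the members bear on what could be counted. The longest run of A inside each of 4 abundant members is shown first, in capitals, 5′ to 3′ on the plus strand of the mitochondrial chromosome (GENCODE transcripts, GRCm38), because these are candidate internal priming positions.
mt-Rnr1: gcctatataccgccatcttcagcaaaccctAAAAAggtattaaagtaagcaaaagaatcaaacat
mt-Rnr2: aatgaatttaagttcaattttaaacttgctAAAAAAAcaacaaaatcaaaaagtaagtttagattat
mt-Nd2: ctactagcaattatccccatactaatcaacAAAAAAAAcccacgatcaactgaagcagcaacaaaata
mt-Cytb: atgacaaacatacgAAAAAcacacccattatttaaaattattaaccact
The mt-Rnr1 stretch lies at chrM:675-739, that of mt-Rnr2 at chrM:1458-1524, that of mt-Nd2 at chrM:4022-4089 and that of mt-Cytb at chrM:14145-14193. The run is 5 bases long in mt-Rnr1, 7 in mt-Rnr2, 8 in mt-Nd2 and 5 in mt-Cytb. Run length did not order the members. mt-Cytb, with a run of 5, had the most UMIs of any protein-coding member, and the tRNA mt-Tr, with a run of 8, is not in the tables.

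Nuclear copies of mitochondrial genes are the other feature of sequence that separates the members. Each member was cut into overlapping windows of 50 bases, and windows found letter for letter in a transcript of a nuclear gene were counted. The next 4 stretches of 60 bases are each held exactly by the named nuclear gene. They are the stretches nearest the 3′ end that are so held, they are shown because a read from them fits both genes equally, and no base is in capitals because every base matches.
mt-Co1, in Gm29216: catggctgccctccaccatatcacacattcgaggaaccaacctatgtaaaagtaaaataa
mt-Co3, in Gm28437: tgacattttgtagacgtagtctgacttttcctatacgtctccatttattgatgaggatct
mt-Nd3, in Gm28438: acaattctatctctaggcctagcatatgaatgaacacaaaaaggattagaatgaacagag
mt-Nd4, in Gm28439: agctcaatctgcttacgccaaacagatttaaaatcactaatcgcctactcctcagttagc
The mt-Co1 stretch (chrM:6813-6872) ends at the last base of the gene, those of mt-Co3 (chrM:9330-9389) and mt-Nd3 (chrM:9744-9803) end 1 and 3 bases before it, and that of mt-Nd4 (chrM:10983-11042) ends 502 bases before it. Among the last 300 bases, nuclear transcripts held every window of mt-Co1 and mt-Co2, 99.6% of those of mt-Co3, 98.8% of those of mt-Atp6, mt-Nd3 and mt-Nd4l, 31.9% of mt-Nd2, 1.99% of mt-Nd5 and none of mt-Nd1, mt-Nd4, mt-Nd6, mt-Cytb, mt-Atp8 or either ribosomal RNA. Over the whole gene the share was 62.2% for mt-Nd4 and 1.04% for mt-Rnr2.

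The protein-coding members fell into abundant and nearly absent ones, and the split followed the copies with 3 exceptions. Of the 6 genes with over 90% of their end windows in nuclear transcripts, mt-Atp6, an ATP synthase subunit, and mt-Nd4l, a complex I subunit, are not in the tables. The others were the complex IV subunits mt-Co2, with 1 UMI, mt-Co3, with 5, and mt-Co1, with 3629, and the complex I subunit mt-Nd3, with 489. Of the 7 remaining genes, 6 had 715 to 14286 UMIs, and mt-Atp8, the other ATP synthase subunit, is not in the tables. mt-Co1 was thus counted although every end window is shared, mt-Nd3 was counted at 1405 UMIs per kb, next to the 1378 of mt-Nd6, although nearly all of its windows are, and mt-Atp8 was not counted although none is. The end of mt-Atp8 (chrM:7766-7969) overlaps the start of mt-Atp6 (chrM:7927-8607), and that of mt-Nd4l (chrM:9877-10173) the start of mt-Nd4 (chrM:10167-11544). Whether these overlaps bear on the absence of mt-Atp8 and mt-Nd4l was not tested. Across the 13 genes the Spearman correlation of the end-window share with UMIs was −0.47, given as a description of genes that lie on shared precursors. Only 2 nuclear copies have their own place in the tables, Gm20594 (a copy of part of mt-Rnr2) with 132 UMIs and Gm4076 (mt-Nd5) with 22. How the authors' counting treated reads that match several places was not tested, so levels of mt-Co1, mt-Co2, mt-Co3, mt-Nd3 and mt-Atp6 are uncertain.

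**Figure D1:**
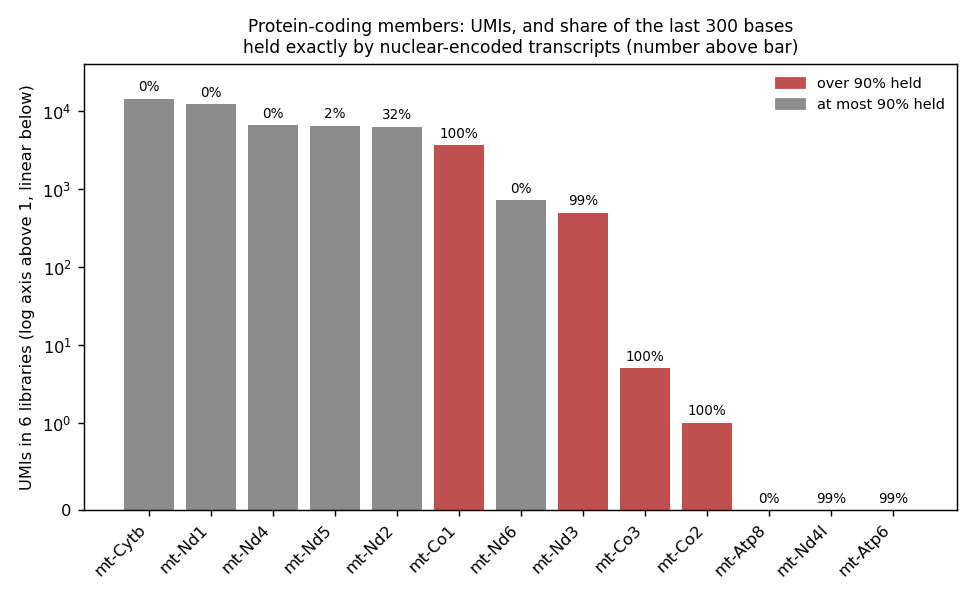
UMIs of the 13 protein-coding mitochondrial genes over all 6 libraries (log axis above 1, linear below), with the share of windows in the last 300 bases that nuclear transcripts hold exactly written above each bar. Red bars mark genes above 90%: mt-Co1 stands at 3629 UMIs, mt-Nd3 at 489, and mt-Co3, mt-Co2, mt-Nd4l and mt-Atp6 at 5 or fewer.

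A single transcript made up most mitochondrial UMIs of every library. mt-Rnr2 (chrM:1094-2675), the large-subunit rRNA, held 904760 UMIs, or 94.1% of all mitochondrial UMIs. Its share was 90.02% and 96.9% in naive 1 and 2 and 96.9% and 97.6% in the heterozygous and null libraries, but 72.4% and 67.6% in metastasis 1 and 2. Among barcodes of metastasis 2 with at least 400 genes it was 46.3%, and among its microglia-like barcodes 39.8%. Scaled by gene length it had 571909 UMIs per kb, while mt-Nd1, a complex I subunit, had 12701 and mt-Cytb, the complex III subunit, had 12488. The small-subunit rRNA mt-Rnr1 (chrM:70-1024) followed with 6521 UMIs per kb, near mt-Nd2 with 6002. That rank came from metastasis 1, which gave 4434 of the 6228 UMIs of mt-Rnr1. Without it mt-Rnr1 had 1879 UMIs per kb and mt-Nd2 had 4211, and mt-Rnr1 was below mt-Nd2 per kb in each of the other 5 libraries. Over all libraries, the complex I subunits mt-Nd4 and mt-Nd5 had 4724 and 3514, mt-Co1 had 2349, and mt-Nd3 and mt-Nd6 had 1405 and 1378. The ribosomal RNAs, parted only by the tRNA mt-Tv (chrM:1025-1093) on the chromosome, thus stood far apart in UMIs per kb.

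The 14 tRNAs together held 352 UMIs. mt-Tw led with 79, before mt-Tp with 56, mt-Tt with 53, mt-Tm with 33, mt-Te with 24, mt-Ti with 22, mt-Tc with 21 and mt-Tv with 20. Per 1000 protein-coding UMIs the tRNAs numbered 6.25 and 4.29 in naive 1 and 2, 5.96 and 23.5 in metastasis 1 and 2, and 3.39 and 5.24 in the heterozygous and null libraries. Metastasis 2 stood highest and the other 5 libraries lay close together. Whether these UMIs came from tRNAs or from uncut precursors was not tested.

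mt-Rnr2 set the mitochondrial share of each library and varied far more than the protein-coding members. All members together made up 6.87% and 12.5% of UMIs in naive 1 and 2, 2.85% and 3.32% in metastasis 1 and 2, and 13.3% and 15.2% in the heterozygous and null libraries. mt-Rnr2 stood at 61857, 120699, 20615, 22442, 128770 and 148111 CPM in the same order. Both metastasis libraries of unmodified mice were thus low, both naive libraries were higher, and the Cx3cr1 libraries, which also carried metastases, were the highest. The protein-coding members together made up 0.668%, 0.359%, 0.616%, 1.00%, 0.385% and 0.335% of UMIs. Here metastasis 2 was highest, and the 3 libraries with the most mt-Rnr2 were lowest. For each protein-coding UMI there were 9.26 and 33.6 mt-Rnr2 UMIs in naive 1 and 2, 3.35 and 2.24 in metastasis 1 and 2, and 33.5 and 44.2 in the heterozygous and null libraries.

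**Figure D2:**
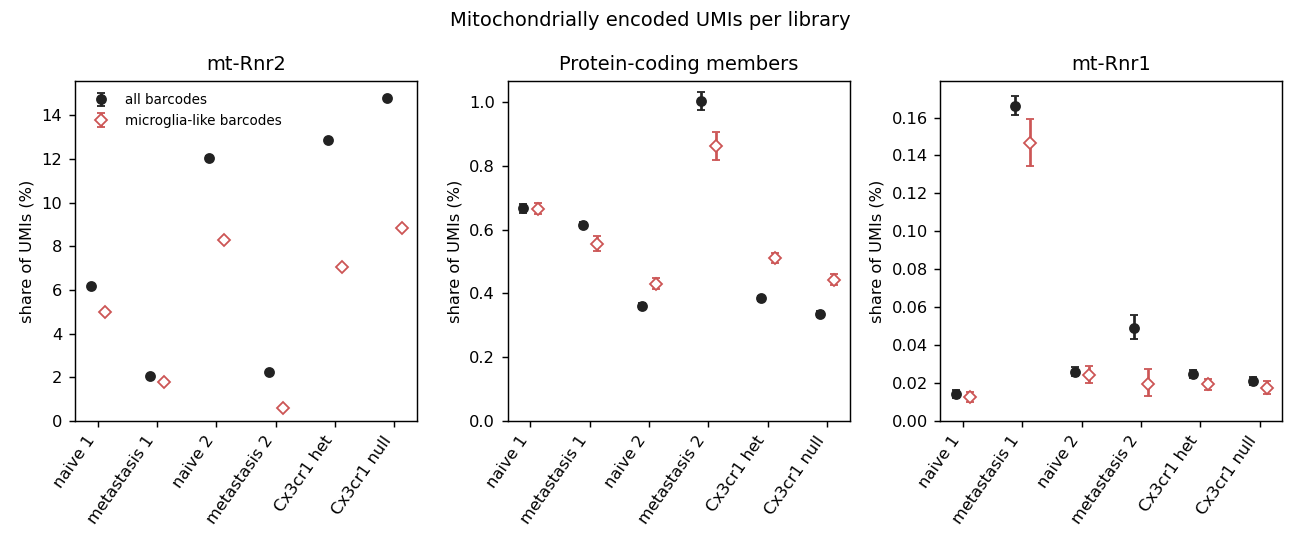
Share of UMIs (%) of mt-Rnr2, of the protein-coding members together and of mt-Rnr1 in each library, for all barcodes (filled) and microglia-like barcodes (open), with exact 95% binomial intervals that cover counting error only. mt-Rnr2 is lowest in both metastasis libraries, the protein-coding share is highest in metastasis 2 (1.00%), and mt-Rnr1 is highest in metastasis 1.

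The complex I subunits made up 60.3% and 62.3% of protein-coding UMIs in naive 1 and 2, 65.1% and 73.4% in metastasis 1 and 2, and 63.7% and 64.2% in the heterozygous and null libraries. mt-Nd1 (chrM:2751-3707), which helps to form the quinone site, stood at 1354, 734, 1661, 2650, 949 and 749 CPM in that order. mt-Nd2 (chrM:3914-4951), a proton-pumping subunit, stood at 930, 402, 697, 1684, 443 and 397 CPM. The other pumping subunits, mt-Nd4 and mt-Nd5, ran from 468 to 1583 CPM and from 418 to 950 CPM. In all of these, metastasis 2 was the highest library. mt-Nd3, whose windows are nearly all shared with Gm28438, spread most, with 146 and 7.40 CPM in naive 1 and 2, 28.9 and 334 CPM in metastasis 1 and 2, and 8.0 and 21.5 CPM in the heterozygous and null libraries.

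mt-Cytb (chrM:14145-15288), the mitochondrial subunit of complex III, stood at 1734, 1129, 1602, 2288, 1281 and 1073 CPM in the same order and had the narrowest range of the 5 most abundant protein-coding members when the highest library is set over the lowest. mt-Co1 (chrM:5328-6872), the catalytic subunit of complex IV, was ordered otherwise. It held 915 and 223 CPM in naive 1 and 2, 550 and 378 CPM in metastasis 1 and 2, and 114 and 127 CPM in the heterozygous and null libraries. As a share of protein-coding UMIs it made up 13.7% and 8.93% in the HiSeq libraries and 2.96% to 6.21% in the NextSeq libraries. mt-Nd6 (chrM:13552-14070), the only protein-coding member on the minus strand, overlaps mt-Nd5 by a few bases, and use of strand in the counting is not given in the sources used here. For each 100 UMIs of the other protein-coding members it had 1.19 and 1.13 UMIs in the HiSeq libraries and 1.60 to 1.86 in the NextSeq libraries. How many other genes part the libraries by sequencer was not counted, so the values of mt-Co1 and mt-Nd6 are descriptions.

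**Figure D3:**
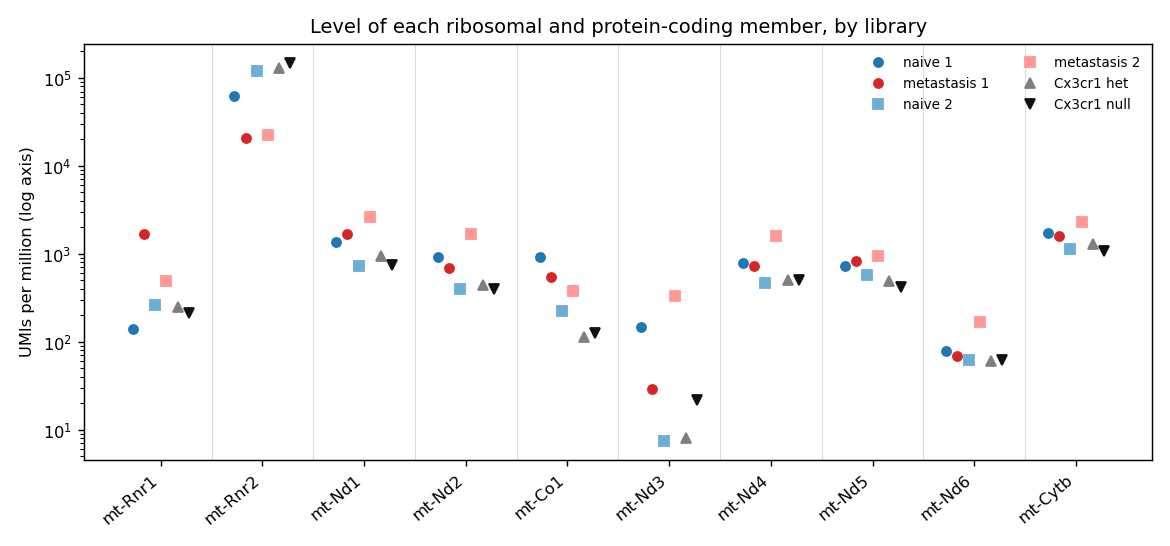
CPM (log axis) of both ribosomal RNAs and the 8 protein-coding members with at least 20 UMIs, with 1 point for each library. mt-Rnr1 is highest in metastasis 1 at 1662 CPM, mt-Rnr2 is lowest in both metastasis libraries, and mt-Nd3 spans the widest range.

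Metastasis and naive brains of unmodified mice were compared over all barcodes with 2 libraries in each group. The mitochondrial share averaged 3.08% with metastasis and 9.66% without, a difference of −6.58 percentage points. It was lower in metastasis within both replicates, with differences of −4.02 points in replicate 1 and −9.14 points in replicate 2. The exact two-sided permutation p was 0.333, the smallest that 2 libraries against 2 can give, so no call is possible. Without the barcodes of clusters led by Ttr, described further on, the share was 6.85% and 7.33% in naive 1 and 2 and 2.85% and 3.31% in metastasis 1 and 2, so the groups stayed apart. The nuclear-retained RNA Malat1, often high where cells are damaged, stood at 15167 and 10960 CPM in naive 1 and 2 and at 8364 and 10968 CPM in metastasis 1 and 2, and its part in the difference was not tested. The protein-coding share alone differed by 0.296 points in the other direction, from 0.514% in naive to 0.810% with metastasis, by −0.052 points in replicate 1 and 0.644 points in replicate 2 (exact permutation p = 0.667). The log2 ratio of rRNA to protein-coding UMIs averaged 4.14 in naive and 1.52 with metastasis, a difference of −2.62, with −1.36 and −3.88 within the replicates (exact permutation p = 0.333).

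Gene by gene, no member passed the threshold. The edgeR quasi-likelihood test covered 9678 genes at an adjusted p under 0.05 and called 0% of them, with 71 at an unadjusted p under 0.05. Of the 12 members tested, 0 were called and 1 had an unadjusted p under 0.05. DESeq2 called 5 genes (0.0517%) and no member, with 2 members at an unadjusted p under 0.05. mt-Rnr2 had a log2 fold change of −2.14 (SE 1.05) and mt-Rnr1, singled out with its level in metastasis 1 known, one of 2.35 (SE 0.77), and the edgeR adjusted p was 0.9997 for every member. mt-Nd1 had 0.92 (SE 0.71), mt-Nd4 0.74 (SE 0.71), mt-Nd2 0.70 (SE 0.79) and mt-Co1 −0.47 (SE 0.84). The fold change was above 0 for 10 of 12 members, with a median of 0.67 over the 12 and 0.02 over all genes tested. Leaving out 1 library turned the sign of 6 of these members, and without metastasis 2 only 6 of 12 were above 0, with a median of −0.0058. In CPM, the groups did not overlap for mt-Nd1, mt-Nd5, mt-Rnr1 and mt-Tt, all higher in both metastasis libraries, where 14.3% of all genes tested did the same. mt-Rnr2 alone was lower in both, where 9.43% of all genes did the same. These p-values rest on the spread among 4 libraries, with that of each gene drawn towards the trend over all genes tested. The spread also holds differences in sequencer and cell types between libraries of the same group.

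Microglia-like barcodes were compared in the same way, since the classes differed in size between libraries. These came from clusters computed without any mitochondrial gene and numbered 518 and 244 in naive 1 and 2, 185 and 71 in metastasis 1 and 2, and 251 and 230 in the heterozygous and null libraries. The class was not a single population. In metastasis 1, 183 of its 185 barcodes lay in a cluster led by the chemokine gene Ccl3 and the receptor gene Gpr84, which took its name only from markers compared within metastasis 1. In naive 1, 488 of 518 barcodes, and in metastasis 2, 64 of 71, lay in a cluster led by the casein genes Csn1s2a and Csn2. The mitochondrial share was 5.66% and 8.76% in naive, 2.47% and 1.5% in metastasis, and 7.60% and 9.30% in the heterozygous and null libraries. mt-Rnr2 stood at 49744 and 83056 CPM in naive 1 and 2 and at 17694 and 5955 CPM in metastasis 1 and 2, and its log2 fold change was −2.60 (SE 0.90, unadjusted p = 0.0197, edgeR adjusted p = 0.999). Both metastasis libraries were again below both naive ones. Within the cluster led by casein genes, mt-Rnr2 stood at 54606 CPM in the 488 barcodes of naive 1, 102728 in the 70 of naive 2 and 6669 in the 64 of metastasis 2.

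Of 6533 genes tested in microglia-like barcodes, edgeR called 0%, with 191 at an unadjusted p under 0.05. Among the 10 members tested, 0 were called and 2 had an unadjusted p under 0.05. DESeq2 called 2 genes (0.0306%), of which mt-Rnr2 was 1, at −2.58 (adjusted p = 0.0262). mt-Rnr1 stood at 124 and 241 CPM in naive 1 and 2 and at 1464 and 194 CPM in metastasis 1 and 2. Its log2 fold change was 2.08 (SE 0.84), with metastasis 2 inside the naive range. Without metastasis 2, where metastasis 1 stands alone and the naive pair alone gives the spread, edgeR called 3.39% of 7838 genes and 1 member, mt-Rnr1. That restates why mt-Rnr1 was singled out in metastasis 1 and supports nothing. Of the 10 members tested, mt-Nd1 alone was higher in both metastasis libraries without overlap (18.8% of all genes tested), and mt-Rnr2 alone was lower (11.8%). The fold changes of mt-Cytb, 0.02, and mt-Nd5, −0.07, lay near 0 and changed sign under other scalings, filters and cluster settings.

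mt-Rnr1 stood apart from the other members in metastasis 1, which is why it was singled out. Its levels there are a description, and its place in the fits over all genes above is no independent test of them. It held 140 and 259 CPM in naive 1 and 2, 1662 and 492 CPM in metastasis 1 and 2, and 248 and 210 CPM in the heterozygous and null libraries. Metastasis 1 was the highest and metastasis 2 the next, while the other 4 lay within 140 to 259 CPM. Among the members other than mt-Rnr2, it made up 21.1% of UMIs in metastasis 1 and 2.04% to 6.71% elsewhere. For every mt-Rnr1 UMI there were 12.4 mt-Rnr2 UMIs in metastasis 1, 45.6 in metastasis 2 and 442 to 704 in the other libraries. In barcodes with at least 400 genes, metastasis 2 held 263 CPM, close to the 250.4 CPM of naive 2, while metastasis 1 stayed at 1662 CPM. Metastasis 1 thus stood apart under both settings and metastasis 2 only over all barcodes.

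The UMIs of mt-Rnr1 in metastasis 1 were spread over many barcodes. At least 1 was present in 827 of 1000 barcodes there, and the 10 barcodes with the most held 11.8% of them. With each barcode thinned to 300 UMIs, 39.2% of barcodes kept at least 1 in metastasis 1, against 4.9% and 8.9% in naive 1 and 2 and 8.8% and 6.0% in the heterozygous and null libraries. For metastasis 2 the share was 13.3% of 608 barcodes, the other 392 being too shallow to thin. Before thinning the shares were 82.7% in metastasis 1 and 13.3% to 36.2% elsewhere. No cell type lacks this transcript, so no share of background could be set beside these.

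Within metastasis 1, mt-Rnr1 differed between clusters. For every 100 protein-coding mitochondrial UMIs there were 86.8 mt-Rnr1 UMIs in an unnamed cluster of 503 barcodes led by S100a6 and Sdc1, 26.3 in microglia-like barcodes, 21.5 in an unnamed cluster of 243 barcodes led by Saa3 and Fabp5, and 5.59 in the 65 carcinoma-like barcodes, which had the deepest counts. In CPM these were 3278 (exact 95% binomial interval 3154 to 3406), 1464 (1345 to 1590), 1123 (1048 to 1202) and 559 (506 to 615). The carcinoma marker Rhox5 was also among the leading genes of the cluster led by S100a6 and Sdc1. With 2 carcinoma and 2 natural killer cell markers among its 50 leading genes, that cluster was left unnamed. Its median barcode held 1456 UMIs, against 8797 in carcinoma-like barcodes. Whether it holds carcinoma cells was not tested. Without the cluster led by S100a6 and Sdc1, the library held 970 CPM and 13.5 per 100. Microglia-like barcodes of the other libraries held 1.86 to 5.62 per 100. The cluster with the most mt-Rnr1 was found in metastasis 1 alone, apart from 1 barcode of the null library, so cluster and library cannot be told apart there. Among microglia-like barcodes metastasis 1 was still the highest library. Of its 185, however, 183 lay in the cluster led by Ccl3 and Gpr84, which held no barcodes of any other library. Cluster and library cannot be told apart there either.

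**Figure D4:**
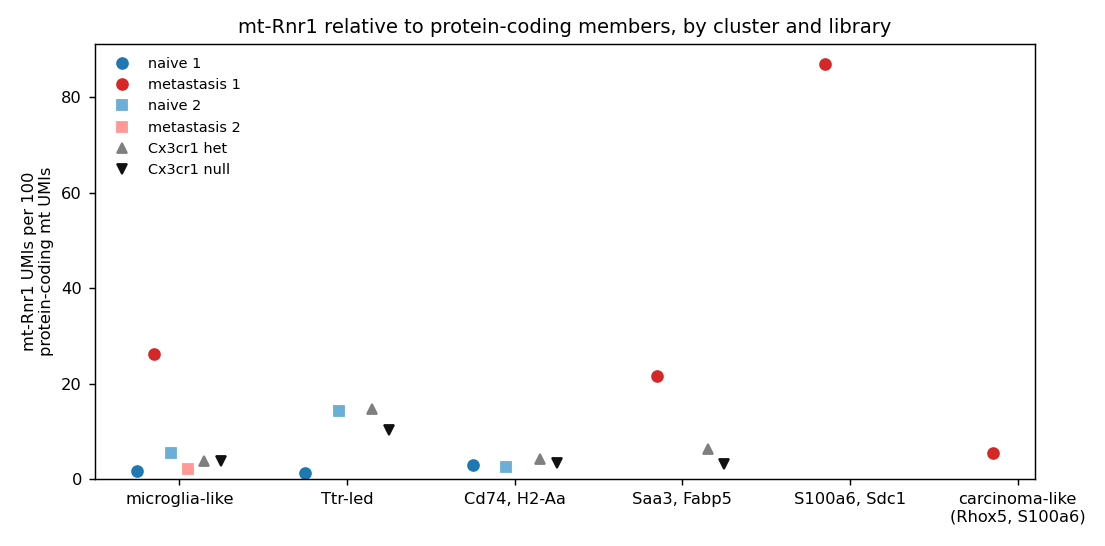
mt-Rnr1 UMIs for every 100 protein-coding mitochondrial UMIs, by cluster (horizontal axis) and library (colour and shape). The metastasis 1 points stand at 86.8, 26.3 and 21.5 in 3 clusters and at 5.59 in carcinoma-like barcodes, and the microglia-like points of the other libraries lie between 1.86 and 5.62.

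Over the 1000 barcodes of metastasis 1, mt-Rnr2 was the gene whose level per 1000000 nuclear-encoded UMIs was most like that of mt-Rnr1, among 1022 genes with at least 500 UMIs (Spearman 0.59). Of genes outside the mitochondrial genome, Malat1, a nuclear-retained RNA, came next (0.26), then Pabpc1, a poly(A)-binding protein gene (0.21), Gm26924 (0.21), the chaperone gene Hsp90ab1 (0.15) and the demethylase-family gene Jmjd1c (0.12). At the other end stood mt-Cytb (−0.17) and mt-Nd1 (−0.18), the last places of the 1022. These values describe barcodes of 1 library that share depth and clusters. In the other 5 libraries, where only 13.3% to 36.2% of barcodes held any mt-Rnr1, the correlation with mt-Rnr2 ran from −0.05 to 0.09, and counts that sparse allow no comparison with metastasis 1.

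The share of mt-Rnr2 was lower in deeper barcodes of every library, while the protein-coding share was higher. The Spearman correlation of the mt-Rnr2 share with total UMIs per barcode was −0.56 and −0.28 in naive 1 and 2, −0.43 and −0.19 in metastasis 1 and 2, and −0.42 and −0.19 in the heterozygous and null libraries, each over 1000 barcodes. That of the protein-coding share ran from 0.15 to 0.29. Both measures share the barcode's total with depth, so the correlations are descriptions. In the lowest quartile of barcodes by nuclear-encoded UMIs, mt-Rnr2 made up 14.4% and 20.1% of UMIs in naive, 3.59% and 3.46% in metastasis, and 22.9% and 21.0% in the heterozygous and null libraries. In the highest quartile it made up 2.94%, 6.26%, 1.23%, 1.49%, 5.84% and 9.25% in the same order. In naive 2, the heterozygous and the null library the share was 20.04% or more through the third quartile and was lower in the deepest quartile alone.

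The protein-coding share went from 0.401% to 0.751% between the shallowest and the deepest quartile of metastasis 1, from 0.231% to 0.453% in naive 2, and from 0.241% to 0.490% and 0.220% to 0.432% in the heterozygous and null libraries. In metastasis 2 it was 0.954% and 0.981%. In naive 1 it was highest in the third quartile, at 0.822%, against 0.523% and 0.639% at the ends. mt-Rnr1 in metastasis 1 stood at 2595, 2531, 2340 and 1013 CPM from the shallowest to the deepest quartile, which is above the level of every other library in each quartile.

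**Figure D5:**
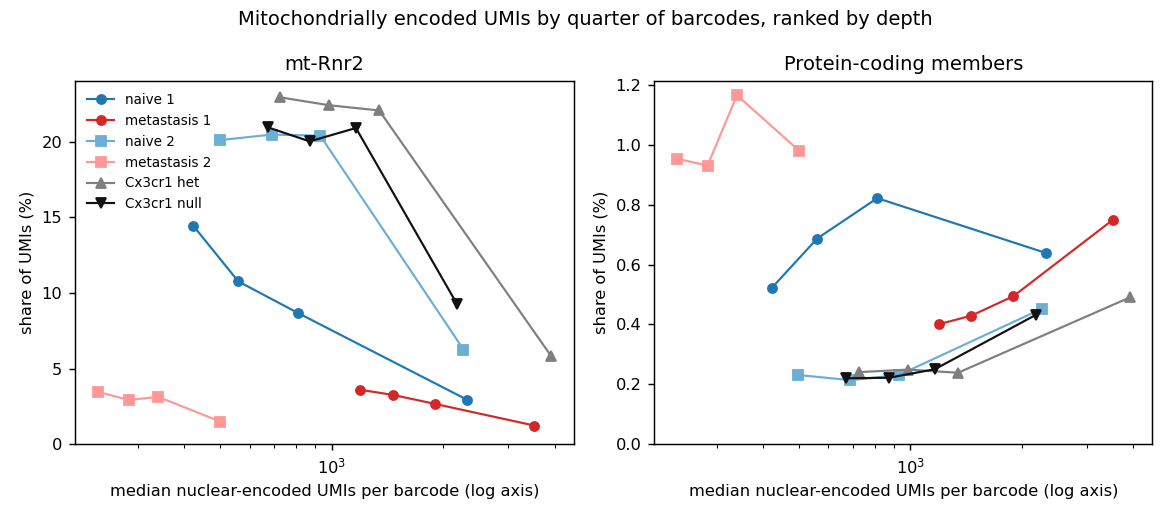
Share of UMIs (%) of mt-Rnr2 (left) and of the protein-coding members (right) in quartiles of the barcodes of each library ranked by nuclear-encoded UMIs, against the median of nuclear-encoded UMIs in each quartile (log axis). In naive 2, the heterozygous and the null library mt-Rnr2 lies at 20.04% to 22.9% in the first 3 quartiles and at 5.84% to 9.25% in the deepest, while the protein-coding share is highest there.

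Clusters led by Ttr carried the highest mitochondrial shares of any cluster in naive 2, the heterozygous and the null library. Ttr encodes transthyretin, a product of the choroid plexus, and markers of astrocytes, mural cells and the choroid plexus were also among the leading genes, so the clusters were left unnamed. They held 562, 677 and 724 barcodes of naive 2, heterozygous and null, and 1 to 15 barcodes of each other library. Gm20594, which copies part of mt-Rnr2, was among their leading genes, and no nuclear copy was among the variable genes that made the clusters. All members together made up 20.7%, 22.6% and 21.1% of their UMIs in these 3 libraries. In microglia-like barcodes of the same libraries the shares were 8.76%, 7.60% and 9.30%. The log2 odds differed by 1.55 on average, from 1.38 to 1.83, and were higher in 3 of 3 libraries (exact sign-flip permutation p = 0.25, the smallest that 3 libraries can give). In naive 1, metastasis 1 and metastasis 2, the 15, 1 and 3 barcodes of these clusters held shares of 8.62%, 2.78% and 5.22%. High shares were not confined to these clusters. Barcodes left unclustered for having under 400 nuclear-encoded genes held 20.3% in naive 2 (135 barcodes), 37.6% in heterozygous (3) and 20.9% in null (10).

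Before depth was matched, the difference between the classes was one of composition as well as of amount. In the edgeR fit with the library as a term, 9 of 10 members passed, 2 higher and 7 lower in the Ttr-led clusters. Of all 8761 genes tested 16.1% passed, 7.66% higher and 8.42% lower, and that background rests on genes used to make the clusters. mt-Rnr2 was higher by 1.48 on the log2 scale (SE 0.11, adjusted p = 6.9e-14) and mt-Rnr1 by 0.68 (SE 0.12, adjusted p = 3.0e-05). The lower members were mt-Nd1 at −1.07 (SE 0.10), mt-Cytb at −0.99 (SE 0.09), mt-Nd4 at −0.91, mt-Nd2 at −0.84, mt-Co1 at −0.77, mt-Nd5 at −0.56 and mt-Nd6 at −0.55. mt-Nd3, at −1.24 (SE 0.49), did not pass (edgeR adjusted p = 0.0797). The call of mt-Nd6 was lost without any 1 of the 3 libraries.

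Depth differed between these classes and moved with the result. The median barcode held 1014, 1296 and 1171 UMIs in the Ttr-led clusters of the 3 libraries, and 1419, 2773 and 1897 in microglia-like barcodes. Among barcodes with 700 to 1500 nuclear-encoded UMIs, the mitochondrial share was 21.0%, 23.8% and 21.3% in the Ttr-led clusters and 19.4%, 17.7% and 18.6% in the 79, 67 and 84 microglia-like barcodes that remained. The mean difference in log2 odds was then 0.31, still above 0 in 3 of 3 libraries. The protein-coding share of these barcodes was 0.2275%, 0.2325% and 0.2261% in the Ttr-led clusters and 0.2242%, 0.3284% and 0.2679% in microglia-like barcodes, with no common direction. In the fit on these barcodes 0 of 9 members passed, with 2 at an unadjusted p under 0.05, and 0.138% of 5062 genes did. mt-Rnr2 was at 0.30 (SE 0.08, edgeR adjusted p = 0.286), mt-Nd1 at −0.18 and mt-Nd6 at 0.34. Microglia-like barcodes of matched depth in naive 1, metastasis 1 and metastasis 2 held 8.66%, 2.65% and 2.62% of mitochondrial UMIs, so the mitochondrial share still spanned 2.62% to 19.4% between libraries within that range.

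A cluster led by Cd74 and H2-Aa, genes of antigen presentation, carried little mt-Rnr2. Markers of border-associated macrophages, monocytes and dendritic cells stood together among its leading genes, so it was left unnamed. It held 28 barcodes of naive 1, 32 of naive 2 and 38 of the heterozygous library. All members made up 2.64%, 2.39% and 3.89% of UMIs there and 5.66%, 8.76% and 7.60% in microglia-like barcodes of the same libraries. The log2 odds differed by −1.38 on average, from −1.97 to −1.02, and were lower in 3 of 3 libraries (exact sign-flip permutation p = 0.25, the smallest possible). The protein-coding share was 0.813%, 0.390% and 0.372% in the cluster and 0.666%, 0.430% and 0.511% in microglia-like barcodes, with no common direction.

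Of the 10 members tested between this cluster and microglia-like barcodes 2 passed, where 11.1% of 6904 genes did, 7.89% higher and 3.17% lower. mt-Rnr2 was lower, at −1.45 (SE 0.19, edgeR adjusted p = 7.5e-06), and mt-Co1 higher, at 0.66 (SE 0.20, adjusted p = 0.0382). The call of mt-Co1 was lost without naive 2 (edgeR adjusted p = 0.226) or the heterozygous library (0.163). Without naive 1 mt-Nd6 also passed, at −1.25. The cluster was the deeper one, with medians of 3330, 4870 and 7632 UMIs against 1049, 1419 and 2773, and only 4, 2 and 1 of its barcodes fell in the range of matched depth, so the part of depth was not tested.

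The Cx3cr1-null library was set against the heterozygous library without a test, since each genotype has 1 library. The log2 ratio of null to heterozygous was 0.19 for all members (95% counting interval 0.18 to 0.20), 0.20 for mt-Rnr2 and −0.20 for the protein-coding members together (−0.25 to −0.15). mt-Nd1 stood at −0.34, mt-Cytb at −0.26, mt-Rnr1 and mt-Nd5 at −0.24, mt-Nd2 at −0.16, mt-Co1 at 0.16, mt-Nd4 at 0.02 and mt-Nd6 at 0.01. mt-Nd3, with 38 UMIs in the null and 19 in the heterozygous library, was the only 1 of 10 members past 2-fold, at 1.43 (0.60 to 2.31). Past 2-fold were 1.24% of 8399 genes upward and 2.19% downward. With barcodes of at least 400 genes and under 10% mitochondrial UMIs, the ratio was 0.0098 for all members and 0.11 for the protein-coding members. That filter cuts on the share being compared and left 160 null and 251 heterozygous barcodes, so its ratio for all members decides nothing. In microglia-like barcodes the ratio was 0.29 for all members.

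The nuclear genes that build the same complexes were counted beside the members, from lists chosen by function. In the comparison of metastasis with naive over all barcodes none passed in any list (edgeR, 0% of all genes). Medians of the log2 fold change were 0.61 over 36 nuclear subunits of complex I, 0.08 over 4 of complex II, 0.38 over 9 of complex III, 0.77 over 12 of complex IV and 0.64 over 16 of complex V, against 0.02 over all genes tested. The 74 genes of mitochondrial ribosomal proteins tested had a median of 0.53 and the 27 of mitochondrial transcription and RNA handling one of 0.36. Without metastasis 1 the medians were −0.034 for complex I, −0.44 for II, −0.11 for III, 0.11 for IV, 0.20 for V, −0.25 for the ribosomal proteins, of which 53 of 76 were below 0, and 0.21 for RNA handling, with −0.074 over all genes. Summed over the complex IV list, the level was 2925 and 2422 CPM in naive 1 and 2, 6774 and 2976 CPM in metastasis 1 and 2, and 2840 and 2912 CPM in the heterozygous and null libraries. Cox4i1, a nuclear subunit of complex IV, stood at 475, 553, 1396, 570, 606 and 556 CPM in the same order. Slirp, which stabilizes mitochondrial mRNAs, stood at 341 CPM in metastasis 1 and at 59.8 to 102 CPM in the other 5 libraries. Metastasis 1, the library with the most mt-Rnr1, was thus also the highest in these nuclear genes, while its share of protein-coding members lay inside the range of the other libraries.

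Between classes, the nuclear subunits leaned the way of the mitochondrial protein-coding members in the Ttr-led clusters. These genes took part in the clustering, so their counts are a description. Past the threshold and lower were 16 of 36 nuclear subunits of complex I, 1 of 4 of complex II, 4 of 9 of complex III, 7 of 12 of complex IV, 7 of 15 of complex V, 12 of 73 mitochondrial ribosomal proteins and 3 of 22 genes of mitochondrial transcription and RNA handling, where 8.42% of all genes tested were, and none was higher. The medians ran from −0.52 for complex I to −0.22 for RNA handling, with 0.0031 over all genes. The complex I subunits Ndufb6 and Ndufc2 were at −1.08 (SE 0.20) and −0.96 (SE 0.14), Uqcrh of complex III at −0.67 (SE 0.13), Cox6b1 of complex IV at −0.72 (SE 0.13) and Atp5j2 of ATP synthase at −0.77 (SE 0.14). Trmt10c and Hsd17b10, which work together in cutting and modifying mitochondrial tRNAs, were at −1.04 (SE 0.36) and −0.90 (SE 0.31). Malat1 was at 0.30 (SE 0.10) there, and its part in these differences was not tested. Among barcodes of matched depth, edgeR called 0 genes of any of these lists, with 2 of 34 of complex I and 2 of 30 ribosomal proteins at an unadjusted p under 0.05, and the medians were −0.12 for complex I and −0.0014 for complex IV. In the cluster led by Cd74 and H2-Aa, where 7.89% of all genes tested passed and were higher, 8 of 12 nuclear subunits of complex IV were, as were 4 of 36 of complex I, 1 of 4 of complex II, 1 of 9 of complex III, 3 of 16 of complex V, 4 of 67 mitochondrial ribosomal proteins and 0 of 14 genes of RNA handling. None of these genes passed and was lower. Cox5a and Cox5b, of complex IV, were at 1.21 (SE 0.21) and 1.04 (SE 0.23), and Mrpl33, of the large mitochondrial ribosomal subunit, at 1.36 (SE 0.24). In the null over heterozygous ratio the medians of these lists lay between −0.14 and 0.09.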

How the data were processed

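Each library has 1 deposited table of UMI counts with 1000 barcodes as columns. The values are whole numbers and differ in their totals, which is why they were taken as counts. Per the submitters' processing notes, STAR, Seurat and the mm10 build were used. How the authors chose the barcodes is not given in the sources used here, and neither are the annotation and versions. Groups follow the sample labels.

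CPM are per 1000000 UMIs of a library or class. Coordinates and sequences come from GENCODE (GRCm38). Barcodes with at least 400 nuclear-encoded genes, and under 5% erythroid UMIs, were clustered on nuclear genes (scanpy 1.11.5, 2000 variable genes, 30 components, 15 neighbours, leidenalg 0.10.2, resolution 1, no batch correction, Python 3.11.15). This left 565, 1000, 865, 78, 997 and 990 barcodes in naive 1, metastasis 1, naive 2, metastasis 2, heterozygous and null. Doublets were kept, and leaving out the top 5% of Scrublet scores was an alternative. Clusters were named from marker lists. A class needs at least 3 markers among its 50 leading genes.

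Counts were summed per library or class and fitted with edgeR 4.0.16 (R 4.3.3) by quasi-likelihood, with TMM, filterByExpr and Benjamini-Hochberg adjustment over all genes tested at 0.05. Class fits used libraries with at least 20 barcodes of both classes. DESeq2 1.42.0 was an alternative. The edgeR fit was tested on simulated counts with the same dispersion for every gene. It called 66 of 100 genes changed 4-fold over all barcodes and 60 of 100 in microglia-like barcodes. Of 100 genes changed 16-fold it called 99 in each, with 8 and 0 false calls. The spread of the real libraries was not simulated. Permutation tests used scipy 1.17.1. Exact 95% intervals (Clopper-Pearson, Poisson) cover counting error only. Deviations of libraries with the same replicate number, which share a sequencer, correlated at −0.43 over all barcodes and −0.26 in microglia-like barcodes, so the numbers did not pair them.

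Named were both rRNAs, the protein-coding members and tRNAs with at least 20 UMIs, and, of each nuclear list, up to 2 genes per direction with the largest fold past the threshold or otherwise the most abundant gene. The members and lists were chosen with earlier results of these data known. The clustering minimum, the erythroid limit, the naming rules and the range of matched depth were set after the data had been seen.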

Additional observations from a re-analysis of the deposited data

How the results depend on the processing

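The lower mitochondrial share in metastasis kept its direction under 6 of 7 other settings and turned with protein-coding members only, at 0.296 points. Of the 6, the replicate block could not differ, since each replicate holds 1 library of each group. Leaving out mt-Rnr1 removed at most 0.166% of UMIs and could not turn the direction either. Leaving out 1 library gave −9.37 to −3.79 points, and −3.55 to −1.69 for the log2 ratio of rRNA to protein-coding UMIs. With the replicate block these differences were −6.58 and −2.62, and edgeR called 0 genes and 0 members in both sets of barcodes. With the numbers crossed, edgeR called 1 of 9678 genes over all barcodes and 0 of 6533 in microglia-like barcodes. Over all barcodes DESeq2 called 5 genes and edgeR without a filter 110. In microglia-like barcodes these were 2, with 1 member, and 51. Leaving out 1 library gave 0 genes and 0 members over all barcodes, but 0 to 266 genes and 0 to 1 member in microglia-like barcodes (30 genes without naive 2, 2 without metastasis 1). With library totals in place of TMM, the median of all genes in microglia-like barcodes moved from −0.0077 to 0.12.

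Over all barcodes, leaving out 1 library turned 6 members, whose ranges were −1.19 to 1.08 for mt-Co1, −0.027 to 0.82 for mt-Cytb, −0.13 to 1.61 for mt-Nd2, −1.66 to 4.65 for mt-Nd3, −0.18 to 1.21 for mt-Nd6 and −0.22 to 2.39 for mt-Tw. In microglia-like barcodes the ranges that crossed 0 were −1.53 to 0.83 for mt-Co1, −0.39 to 0.31 for mt-Cytb, −0.39 to 0.99 for mt-Nd2, −1.60 to 4.24 for mt-Nd3, −0.39 to 0.85 for mt-Nd4, −0.21 to 0.069 for mt-Nd5 and −0.48 to 1.07 for mt-Nd6. mt-Cytb also turned there without a filter (−0.0043), under 10% mitochondrial UMIs (−0.051), without the top Scrublet scores (−0.019) and at Leiden resolution 2 (−0.025), and mt-Nd5 without TMM (0.059) and with marker UMIs in place of clusters (0.25). The cause was not tested.

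For the Ttr-led clusters, leaving out 1 library kept 8 members called, and at matched depth, where fewer barcodes and genes remained, 0 were called and mt-Nd6 turned to 0.34. At resolution 2 mt-Nd5 and mt-Nd6 lost their calls and mt-Nd3 gained one. For the Cd74 and H2-Aa cluster, 1 to 3 members were called without 1 library, and 1 at resolution 2. There mt-Rnr1 turned to 0.070 under 10% mitochondrial UMIs and ranged from −0.57 to 0.27 without 1 library, mt-Nd3 from −0.16 to 0.055 and mt-Nd4 from −0.19 to 0.12, and the log2 odds of mt-Rnr1 from −0.74 to 0.34 and of protein-coding UMIs from −0.30 to 0.075. The null over heterozygous ratio of all members was 0.22 per 1000000 nuclear UMIs, 0.29 in microglia-like barcodes and 0.0098 in barcodes of at least 400 genes and under 10% mitochondrial UMIs, where mt-Rnr2 was −0.0003 and protein-coding members 0.11. mt-Rnr1 in metastasis 1 was 1464 CPM in microglia-like barcodes and 970 CPM without the S100a6 and Sdc1 cluster.

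Not run were the fit of the Ttr-led clusters under 10% mitochondrial UMIs (2 libraries only), the Cd74 and H2-Aa cluster at resolution 0.5 or matched depth, and the comparison of metastasis with naive in microglia-like barcodes at resolution 0.5 (3 barcodes in metastasis 1). Depth limits metastasis 2 most, where 921 of 1000 barcodes had under 400 nuclear-encoded genes.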
